A study of Mus musculus with 17 samples.

Results

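Ct_2 and dTg_7 are the 2 untreated libraries of this mouse frontal cortex series in which a run of genes on chromosome 12 lay about 2 times as high as in the other untreated libraries. They were chosen by their high values of Esyt2 and Ptprn2, and they are 2 of 12 libraries compared, among 16 distinct libraries in the series. They were set against 10 other untreated libraries, dTg_2 to dTg_6 and Ct_1 and Ct_3 to Ct_6. Because the libraries were selected on Esyt2 and Ptprn2, the values of the driver-site genes Esyt2, Wdr60, Ncapg2 and Ptprn2 are given here as a description, with no test.

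All libraries came from polyadenylated RNA of male FVB/N frontal cortex, and the labels give no age. Ct_2 and the 5 other Ct libraries carry the genotype label CamK, a driver transgene alone. The libraries dTg_7 and dTg_2 to dTg_6 carry the label dTg-211, which stands for the driver together with a miR-211 transgene. None of these 12 libraries had doxycycline, the drug that the series uses on double-transgenic mice. By label, therefore, every library compared here carries the driver. Left out of the comparison were dTg_1, whose deposited values are identical to those of the library labelled NTg, and the 3 dTgDox libraries from double-transgenic mice given doxycycline for 4 days.

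The 4 driver-site genes lie side by side and have unrelated jobs. Wdr60 encodes an intermediate chain of dynein-2, the motor that carries cargo back along cilia. Esyt2 encodes an extended synaptotagmin, a tether between the endoplasmic reticulum and the plasma membrane. Ncapg2 encodes a subunit of condensin II, a complex that compacts chromosomes. Ptprn2 encodes phogrin, a phosphatase-like membrane protein of dense-core vesicles in neurons and endocrine cells. As background, a widely used Camk2a transactivator line has been reported to carry its transgene in this stretch of chromosome 12, with loss of sequence between Vipr2 and Ptprn2. The labels do not name the driver line, and the genotype of the libraries at this site was not tested.

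On GRCm38, Wdr60 occupies chromosome 12, 116206262 to 116263022, on the minus strand. Esyt2 follows at 116281196 to 116391050, Ncapg2 at 116405402 to 116463731 and Ptprn2 at 116485720 to 117276849, all on the plus strand. The gap between Wdr60 and Esyt2 measures 18.2 kb, that between Esyt2 and Ncapg2 14.3 kb and that between Ncapg2 and Ptprn2 22 kb. Vipr2, a receptor gene, sits before Wdr60, at 116077726 to 116146261 on the plus strand. For each gene, 120 bases before its start are shown because these genes differ together between the libraries. They come from the RefSeq promoter table of GRCm38.p6, on the strand of the gene, 5′ to 3′. Each window ends before the RefSeq and the GENCODE start alike, so it was moved back by 26 bases from the RefSeq start for Esyt2 and by 34 for Ncapg2, and the RefSeq start of Wdr60 lies slightly outside its GENCODE end. Capitals mark the motif GGGCGG or its reverse complement CCGCCC.
Wdr60, chr12:116263026-116263145, minus strand: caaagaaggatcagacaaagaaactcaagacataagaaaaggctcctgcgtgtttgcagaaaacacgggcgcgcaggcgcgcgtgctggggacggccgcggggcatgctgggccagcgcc
Esyt2, chr12:116281076-116281195, plus strand: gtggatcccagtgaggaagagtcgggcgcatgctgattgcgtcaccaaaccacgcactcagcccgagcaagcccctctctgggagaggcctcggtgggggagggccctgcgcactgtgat
Ncapg2, chr12:116405282-116405401, plus strand: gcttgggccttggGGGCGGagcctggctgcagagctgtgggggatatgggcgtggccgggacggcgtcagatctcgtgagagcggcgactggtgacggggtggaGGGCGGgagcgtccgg
Ptprn2, chr12:116485600-116485719, plus strand: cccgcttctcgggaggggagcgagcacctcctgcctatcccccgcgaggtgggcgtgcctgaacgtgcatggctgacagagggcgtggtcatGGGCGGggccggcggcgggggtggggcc
Vipr2, chr12:116077606-116077725, plus strand: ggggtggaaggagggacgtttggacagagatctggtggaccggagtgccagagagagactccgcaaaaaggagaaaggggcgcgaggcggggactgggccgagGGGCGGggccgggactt

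In the printed windows the motif, searched on both strands, was found 2 times before Ncapg2, 1 time before Ptprn2 and 1 time before Vipr2, and not before Wdr60 and Esyt2. In the last 120 bases before the RefSeq start it was found 1 time each for Esyt2, Ncapg2, Ptprn2 and Vipr2 and not for Wdr60, so the count moves with the start used. Of the 32851 promoters of the table, 26.5% hold it in those 120 bases. There the 5 genes have 9 to 14 CpG each, against a median of 3 in the table. These matches describe the letters only.

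Esyt2, the membrane tether, had 9.99 FPKM (read density scaled to transcript length and library size, the unit inferred for the deposited values) in Ct_2 and 12.4 in dTg_7. In the 10 other libraries it ran from 5.16 FPKM in Ct_3 through a median of 5.61 to 6.13 in dTg_3. The lower of the 2 chosen libraries thus stood well clear of the highest of the others. The ratio of means was 1.98, and each library held against the 5 others of its own genotype gave 1.79 for Ct_2 and 2.17 for dTg_7.

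Ptprn2, the vesicle protein, is the most abundant of the 4 per length, at 90.3 FPKM in Ct_2 and 98.2 in dTg_7. The 10 others ran from 38.4 FPKM in Ct_6 through a median of 43.7 to 49.6 in dTg_3. The groups did not overlap, and the ratio of means was 2.13, with 2.11 for Ct_2 and 2.14 for dTg_7 within their own genotype. For both genes that chose the libraries, Ct_2 was the nearest library inside the choice and dTg_3 the nearest outside it.

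Wdr60, the dynein-2 gene, had 5.11 FPKM in Ct_2 and 4.92 in dTg_7, against 1.99 in dTg_6 to 3.09 in Ct_1 among the others, whose median was 2.63. Ncapg2, the condensin gene, is expressed at a low level in this tissue. It had 0.887 FPKM in Ct_2 and 1.06 in dTg_7, against 0.407 in dTg_5 to 0.645 in Ct_6, with a median of 0.515. Neither gene overlapped between the groups, and the ratios of means were 1.96 for Wdr60 and 1.93 for Ncapg2. Over the 4 genes the ratio of means therefore lay between 1.93 and 2.13, although their mean levels in the 10 others, given as mean ± SD, differed from 0.506 ± 0.070 FPKM for Ncapg2 to 44.3 ± 4.4 FPKM for Ptprn2 (n = 10).

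**Figure D1:**
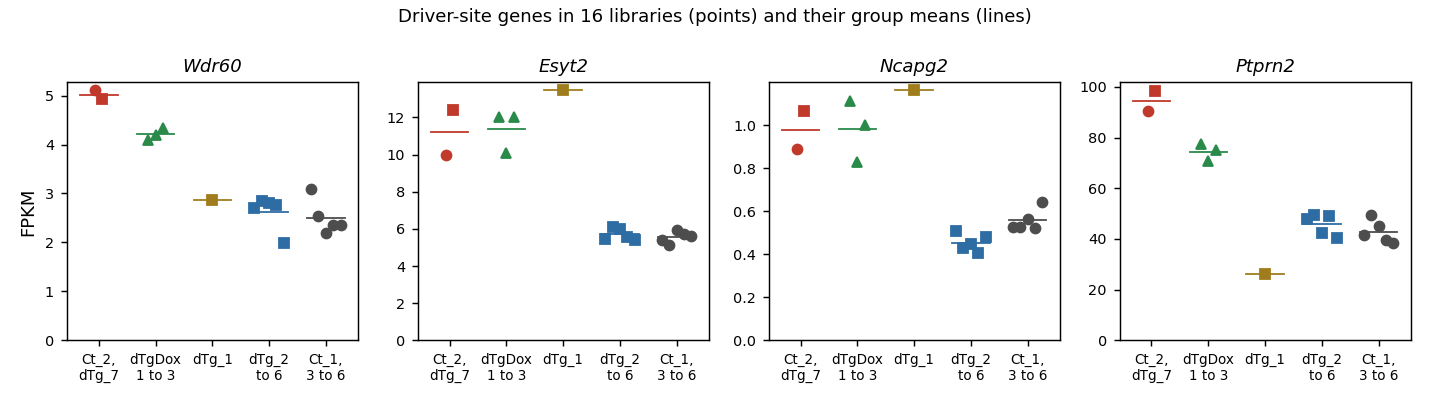
FPKM of the 4 driver-site genes in 16 libraries, by group; each point is 1 library and each line a group mean. Ct_2 and dTg_7 stand above all points of dTg_2 to dTg_6 and of the 5 other Ct libraries in every panel, for Ptprn2 at 90.3 and 98.2 FPKM against at most 49.6.

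Within each group the 4 genes did not rank the libraries alike. Among the 10 others, the highest value belonged to dTg_3 for Esyt2 and Ptprn2, to Ct_1 for Wdr60 and to Ct_6 for Ncapg2. Of the chosen libraries, dTg_7 was the higher for Esyt2, Ncapg2 and Ptprn2, and Ct_2 for Wdr60. The headers of the deposited files give dTg_7, dTg_5 and dTg_6 a shared number whose meaning is not stated. Esyt2 nevertheless had 12.4 FPKM in dTg_7, against 5.58 in dTg_5 and 5.39 in dTg_6.

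The libraries left out of the comparison also differed at this site. Their values are set beside those of the same 10 others, so these descriptions share their reference libraries with the comparison of Ct_2 and dTg_7. In dTgDox_1, dTgDox_2 and dTgDox_3, Esyt2 had 12.0, 10.1 and 12.0 FPKM, and Ptprn2 had 77.4, 71.0 and 75.1 FPKM. Wdr60 had 4.09, 4.20 and 4.34 FPKM there, and Ncapg2 had 1.11, 0.827 and 1.0 FPKM. Every one of these values lay above the 10 others, and the ratios of means were 2.02 for Esyt2, 1.94 for Ncapg2, 1.68 for Ptprn2 and 1.64 for Wdr60.

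The dTgDox libraries also stood apart in tissue and glial markers. The mean log2(FPKM + 0.5) of 9 hippocampus markers was 4.49, 4.41 and 4.53 in them, against 2.08 to 2.56 in the 10 others, and 7 of the 9 lay above all 10 others in all 3. That of 12 upper-layer neuron markers was 3.38, 3.47 and 3.22, against 3.76 to 4.18, and 7 of the 12 lay below. That of 14 astrocyte markers was 6.02, 5.90 and 5.87, against 5.43 to 5.84. Of these 14, only 3 lay above all 10 others in all 3 libraries, and 1 lay below. Fibcd1, a marker of hippocampal CA1, had 25.1, 23.4 and 25.9 FPKM in them, against 1.43 to 3.11, and Gfap, the filament protein of astrocytes, had 276, 127 and 204 FPKM against 19.0 to 49.0. Gjb6, another astrocyte marker, had 94.9, 66.0 and 70.4 FPKM against 37.8 to 76.5, so it overlapped. The share of all genes tested in which all 3 dTgDox libraries lay apart was not counted, so nothing is read from these counts. The part of these marker differences in the dTgDox values given here was not tested.

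The library dTg_1 gave a mixed picture, with 13.5 FPKM of Esyt2 and 1.16 of Ncapg2, both above all 10 others, but 26.4 of Ptprn2, below all of them, and 2.88 of Wdr60, within their range. It also stood apart in tissue markers. Pcp2, a marker of cerebellar Purkinje cells, had 661 FPKM in dTg_1, against 1.74 to 5.20 in the 10 others. Camk2a, the kinase of excitatory forebrain synapses, had 28.3 FPKM in dTg_1, against 594 to 917.

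The next question was which neighbours of the driver-site genes set Ct_2 and dTg_7 apart. Besides the 4 genes, 12 genes within 1 Mb of their span were expressed highly enough to be tested (0.5 FPKM or more in 3 or more of the 12), and limma called none of them at an adjusted p under 0.05, where it called 0.016% of all genes. Both libraries lay above all 10 others in 1 of the 12 and below all of them in 3. Over all 18726 genes tested, both lay above in 271 genes (1.45%) and below in 222 (1.19%). The 4 that lay apart were Vipr2, before the span, and Gm11027, Gm10421 and Gm5441, which overlap it.

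Vipr2 encodes VPAC2, a receptor for vasoactive intestinal peptide and PACAP, and it differed in the direction opposite to the driver-site genes. It had 1.37 FPKM in Ct_2 and 0.304 in dTg_7. In dTg_2 to dTg_6 it had 1.90, 8.07, 4.87, 12.8 and 5.04 FPKM, and in Ct_1 and Ct_3 to Ct_6 it had 12.8, 3.71, 3.23, 8.44 and 8.79. Both chosen libraries lay below all 10 others, although dTg_2 came close to Ct_2. The difference on the log2(FPKM + 0.5) scale was -2.41 (SE 0.61), with a limma adjusted p of 0.756 over all genes. The wide spread of Vipr2 among the 10 others, 6.95 ± 3.83 FPKM (mean ± SD, n = 10), enters that value. In the 3 dTgDox libraries Vipr2 had 0.268, 0.217 and 0.838 FPKM, all below the 10 others, and in dTg_1 it had 3.88.

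Gm11027 is a short gene model in the gap between Wdr60 and Esyt2, at 116275386 to 116275612, with 198 exonic bases. It was listed at 0 in Ct_2 and in dTg_7, and at 1.58 in Ct_5 to 6.89 FPKM in dTg_2 among the 10 others. Scaled to library depth, the values of the others stood at about 1 to 4 times the smallest step among them. Whether that step is 1 read was not tested. The log2 difference was -3.20 (SE 0.48) and the limma adjusted p 0.0733. Limma called it with a pseudocount of 0.1 (0.00232), without the filter on low values (0.043) and without dTg_3 (0.012), and its adjusted p ran up to 0.9998 over the alternatives run. In the dTgDox libraries, which resembled Ct_2 and dTg_7 in the 4 driver-site genes, Gm11027 was not low, at 5.99, 2.93 and 6.57 FPKM.

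**Figure D2:**
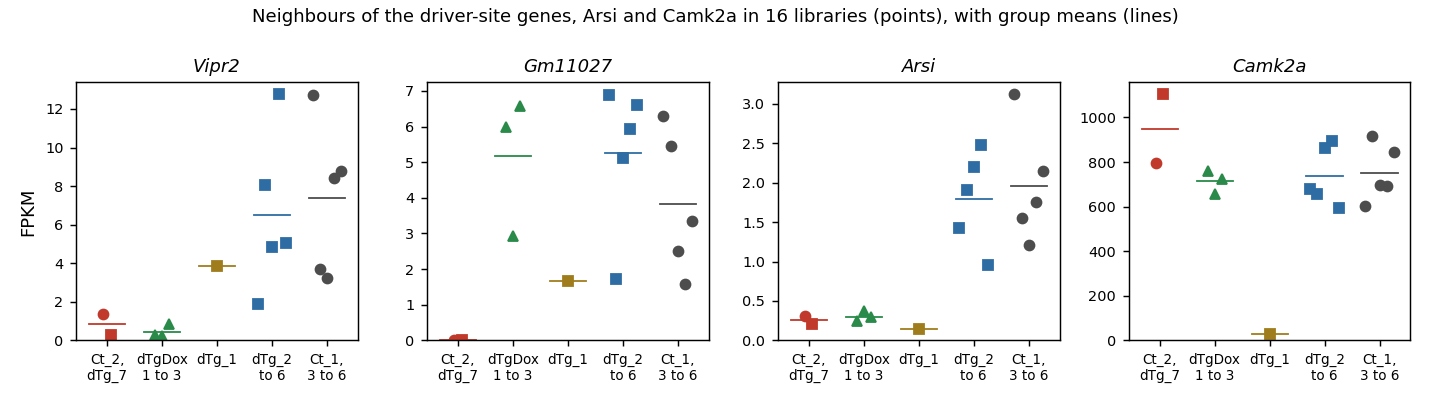
FPKM of Vipr2, Gm11027, Arsi and Camk2a in 16 libraries, by group; each point is 1 library and each line a group mean. For Vipr2 and Arsi, Ct_2, dTg_7 and the 3 dTgDox libraries all lie under the 10 other untreated libraries, while Gm11027 is at 0 in Ct_2 and dTg_7 alone.

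Gm10421 and Gm5441 overlap the span of Ptprn2 on the opposite strand, and whether their exons overlap was not checked. Where exons overlap, reads can be told apart only if the counting used strand, which the sources used here do not state. Gm5441 had 0.612 FPKM in Ct_2 and 0.682 in dTg_7, just above the 0.207 to 0.609 of the others, with a limma adjusted p of 0.998. Gm10421 had 0.582 and 0.581 FPKM, barely under the lowest of the others at 0.583, which reached 30.3 in dTg_5. The remaining 8 genes of the window overlapped between the groups, with log2 differences of -0.20 to 0.20. They include Zfp386, a zinc finger gene before Vipr2, at 9.56 FPKM in Ct_2 and 12.5 in dTg_7 against 11.1 to 15.2. Rapgef5, an activator of Rap GTPases after Ptprn2, had 18.0 FPKM in Ct_2 and 19.4 in dTg_7 against 16.1 to 20.7. Sp4, a transcription factor gene further on, had 4.94 and 5.64 FPKM against 4.93 to 7.28.

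The genes were then counted by distance from the span, which runs from Wdr60 to Ptprn2. Within the span, 7 of 8 tested genes had both libraries above or both below all 10 others, a share that includes the genes used in the choice. In the first 1 Mb on either side 1 of 8 did, Vipr2, and from 1 to 5 Mb 0 of 55 did. From 5 to 20 Mb the count was 6 of 115, or 5.22%, and on the rest of chromosome 12 it was 10 of 458, or 2.18%. Over all genes tested the share was 2.63%. By chromosome the share ran from 1.66% on chromosome 1 to 4.37% on chromosome 15 among the autosomes and X, and chromosome 12 as a whole had 3.73%.

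**Figure D3:**
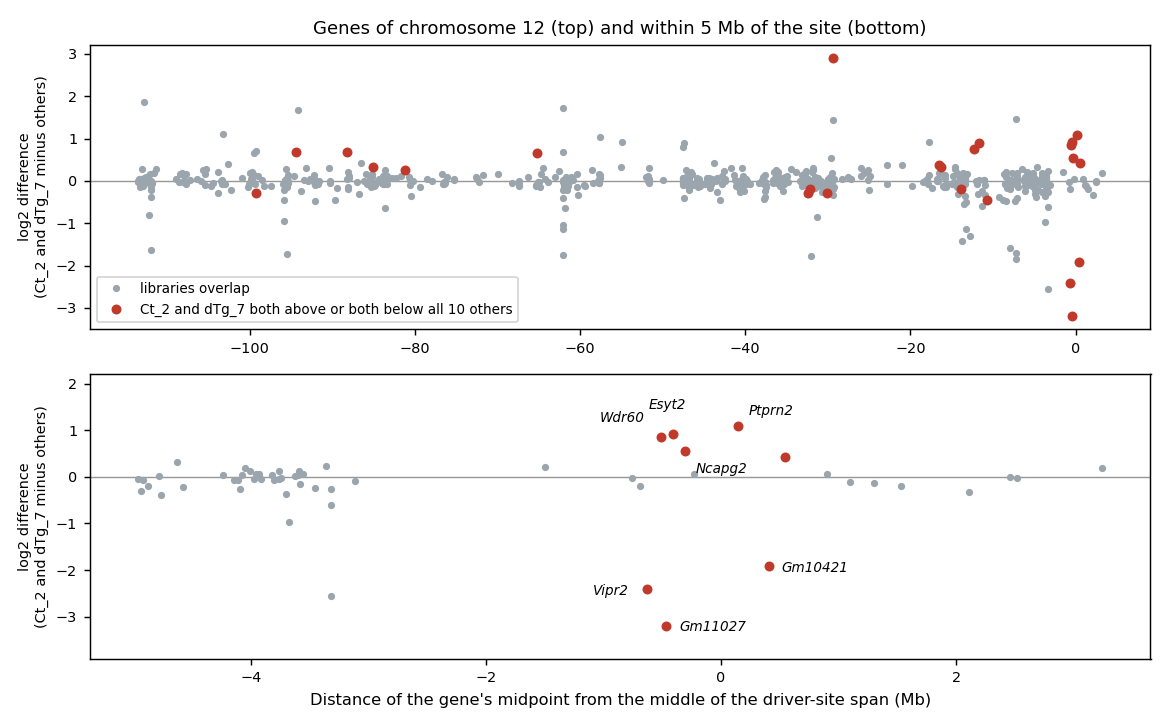
Log2 difference of Ct_2 and dTg_7 minus the 10 others for genes of chromosome 12, by distance of the gene's midpoint from the middle of the driver-site span in Mb, for the whole chromosome (top) and within 5 Mb (bottom). Red points are genes with both libraries above or both below all 10 others; from 1 to 5 Mb from the span 0 of 55 genes are red.

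Genome-wide, limma called 3 of 18726 genes (0.016%) for Ct_2 and dTg_7 against the 10 others with a term for genotype. Its unadjusted p was under 0.05 for 832, a smaller share of the 18726 than the 0.05 expected with no difference. Of the 3, Esyt2 and Ptprn2 had chosen the libraries, and nothing is read from their calls. The remaining one was Gm8034, which fell. The count was 5 without dTg_3 and 11 without Ct_6, and it stayed at 2 to 4 without each other library of the 10. Leaving out Ct_2 or dTg_7 leaves 1 chosen library, so no count is given for these fits. The log2 difference of Gm8034 was -3.52 without Ct_2 and -3.94 without dTg_7. The libraries were also compared as wholes. Over the 18726 genes, Pearson's r of log2 values was 0.963 between Ct_2 and dTg_7, 0.956 to 0.964 between them and the others and 0.953 to 0.968 among the others. Genes are not independent replicates, so these r values describe similarity only.

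Gm8034 (ENSMUSG00000094281, chromosome 19, 6044691 to 6044822, minus strand) is a processed pseudogene of 132 bases, named after the call was seen. It was listed at 0 in Ct_2 and dTg_7 and had 3.98 to 12.7 FPKM in the 10 others, with a log2 difference of -3.73 (SE 0.43) and a limma adjusted p of 0.0154. Over the alternatives run that p ran from 0.000424 to 0.61. The call was lost with a pseudocount of 1 (0.0646), with the tissue covariates (0.0673), under the replicate block (0.32), and without Ct_2 (0.61), dTg_7 (0.177) or Ct_5 (0.051). Scaled to library depth, 6 of the others stood at about 1 time the smallest step among them, 1 at about 2 times and 3 at about 3 times. Whether that step is 1 read was not tested. It is a copy of Tmsb10, the gene of an actin-binding thymosin on chromosome 6, and the sequences are shown because such copies can share reads. The GENCODE M21 transcripts are given 5′ to 3′, whole for Gm8034 and over the aligned stretch for Tmsb10, with capitals at the bases that differ or have no partner.
Gm8034: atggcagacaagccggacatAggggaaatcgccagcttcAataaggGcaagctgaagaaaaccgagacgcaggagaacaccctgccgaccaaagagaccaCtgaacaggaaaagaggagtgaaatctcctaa
Tmsb10: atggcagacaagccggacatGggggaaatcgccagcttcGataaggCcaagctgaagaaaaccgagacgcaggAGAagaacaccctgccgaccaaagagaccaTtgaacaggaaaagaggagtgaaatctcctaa

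The alignment pairs 132 bases, of which 128 are identical, and leaves 3 bases of Tmsb10 without a partner. Tmsb10 itself had 133 FPKM in Ct_2 and 123 in dTg_7, against 138 to 189 in the 10 others, with a limma adjusted p of 0.833. Gm8034 had 8.48, 0 and 7.91 FPKM in the dTgDox libraries. Restricted to the 17732 genes with at least 300 exonic bases, an alternative chosen after the data were seen, limma called 2 genes, Esyt2 and Ptprn2.

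Arsi, the gene of arylsulfatase I, was chosen after its values were seen because it lies directly before Camk2a on chromosome 18. Its annotated end, at 60918561, is 7.06 kb before the start of Camk2a at 60925618. Arsi had 0.307 FPKM in Ct_2 and 0.207 in dTg_7. In dTg_2 to dTg_6 it had 1.43, 1.90, 2.2, 2.48 and 0.957 FPKM, and in Ct_1 and Ct_3 to Ct_6 it had 3.12, 1.55, 1.22, 1.76 and 2.15. The 2 chosen libraries lay below all 10 others, the log2 difference was -1.61 (SE 0.28) and the limma adjusted p was 0.106. With a pseudocount of 0.1, limma called it, with an adjusted p of 0.0394, and over the alternatives run that p ran from there to 0.9998. The 3 dTgDox libraries had 0.241, 0.375 and 0.292 FPKM and dTg_1 had 0.142, all below the 10 others.

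Camk2a did not separate in this way, with 795 FPKM in Ct_2 and 1104 in dTg_7 against 594 to 917 in the 10 others, and a limma adjusted p of 0.998. Slc6a7, a proline transporter gene on the far side of Camk2a and also chosen afterwards, had 24.9 FPKM in Ct_2 and 27.5 in dTg_7 against 17.8 to 28.4. Arsi was thus the only gene of the 3 whose groups did not overlap. Mir211 was listed at 0 in Ct_2 and dTg_7 and in 8 of the 10 others, and had 21.6 FPKM in dTg_2 and 24.8 in dTg_5. Mature microRNAs are not captured in polyA libraries.

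Off the site, the 10 genes with the smallest unadjusted p-values, among those with an informative symbol and a mean log2 level of at least 1, all had groups that did not overlap, which such a choice favours, and limma called none of them. Ccdc3, a secreted coiled-coil protein, had 9.03 FPKM in Ct_2 and 8.32 in dTg_7, against 2.82 in dTg_4 to 5.17 in Ct_6, a log2 difference of 1.05 (SE 0.15). Cdkn1c, an imprinted inhibitor of cyclin-dependent kinases, had 3.6 and 4.44 FPKM against 1.54 to 2.50, a log2 difference of 0.86 (SE 0.13). The limma adjusted p was 0.0733 for both. With mean levels of olfactory bulb and striatum markers as covariates, limma called Ccdc3, with an adjusted p of 0.0221, and without Ct_6 both genes, with 0.0161 for Ccdc3 and 0.0442 for Cdkn1c. Without dTg_4 it called Ccdc3, with 0.0285, and so it did with no genotype term, with 0.0361. With no filter on low values, which admits genes that pass through Ct_2 and dTg_7 alone, it called both, with 0.0405 and 0.0417. Over the alternatives run the adjusted p ran up to 0.9998 for both, and it was 0.828 for both without Ct_2.

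Dpp4, a peptidase of the cell surface, had 1.22 FPKM in Ct_2 and 1.43 in dTg_7, against 2.14 to 3.70 in the 10 others. Its log2 difference was -0.81 (SE 0.14) and its limma adjusted p 0.106. In the dTgDox libraries Dpp4 had 1.16, 0.727 and 0.577 FPKM, again below the 10 others. Rasgrf2, a calcium-responsive Ras activator of upper cortical layers, had 65.4 and 75.9 FPKM against 32.8 to 48.4, with an adjusted p of 0.106. With the tissue covariates limma called Rasgrf2, with 0.0475, in a range up to 0.9998 over the alternatives. In the dTgDox libraries it had 26.6, 27.7 and 22.6 FPKM, below the 10 others, as had the upper-layer markers together.

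A further 4 genes of this set lay above the 10 others in Ct_2 and dTg_7. Mapk4, an atypical MAP kinase, had 24.2 and 20.4 FPKM against 13.0 to 17.7. Rps6ka2, a ribosomal S6 kinase, had 24.3 and 19.8 FPKM against 14.6 to 17.3. Evc2, a ciliary protein of hedgehog signalling, had 8.79 and 8.65 FPKM against 3.74 to 6.77. Ddit4l, an inhibitor of mTOR signalling, had 20.5 and 16.4 FPKM against 5.25 to 12.1. Their limma adjusted p ran from 0.125 for Mapk4 to 0.317 for Ddit4l, so none passed.

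Rpl30, a protein of the large ribosomal subunit, had 195 FPKM in Ct_2 and 224 in dTg_7, against 259 to 335 in the 10 others, with a limma adjusted p of 0.0733. Limma called it without dTg_5 (0.0331) and with no filter on low values (0.0417), in a range up to 0.9998 over the alternatives. Its value is uncertain, because 6 processed copies of it were also measured. They are 98.9% to 99.7% identical to an Rpl30 transcript over 345 to 348 bases, so reads can be assigned to either. Summed, the 6 copies had 185 FPKM in Ct_2 and 106 in dTg_7, against 30.9 to 122 in the 10 others. Of the others, Ct_6 alone had 122, and the rest had at most 44.3. The copy Gm12191, chosen after its values were seen, had 46.6 and 28.0 FPKM against 6.02 to 26.4, with a limma adjusted p of 0.377, and of 0.00305 without Ct_6, in a range up to 0.9998 over the alternatives.

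**Figure D4:**
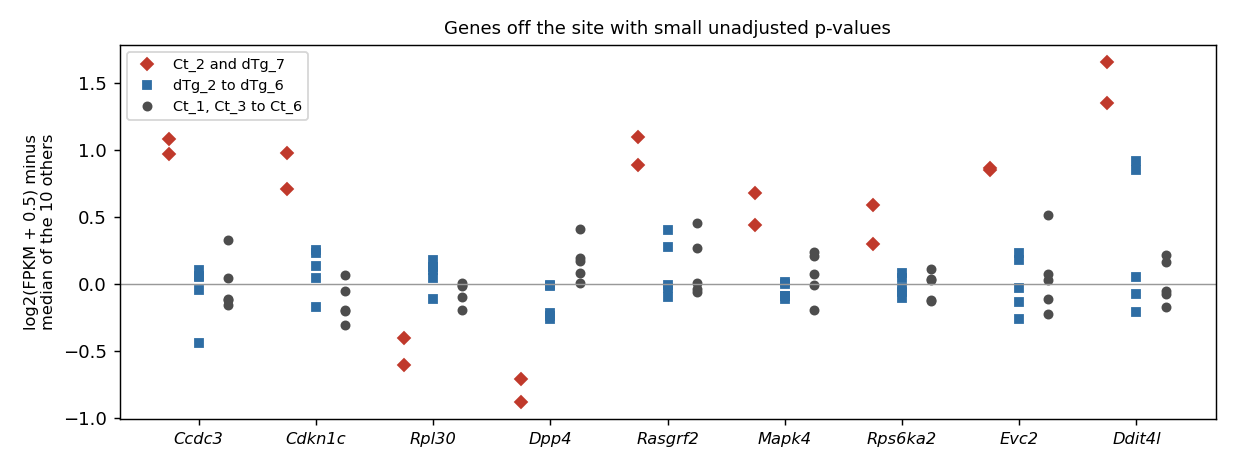
Of the 10 genes off the site with the smallest unadjusted p-values, the 9 described: log2(FPKM + 0.5) of each library minus the median of the 10 others, 1 point a library, for Ct_2 and dTg_7, dTg_2 to dTg_6 and the 5 other Ct libraries. In each gene the red points lie outside the others, above in 7 genes and below for Rpl30 and Dpp4.

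The partners of the driver-site genes in their pathways were counted in the same way. Over all genes tested, 1.45% lay above all 10 others and 1.19% below. Of 36 other genes of dynein-2 and intraflagellar transport, 0 had groups that did not overlap, and their median log2 difference was 0.01. Of 30 other genes of contacts between the endoplasmic reticulum and the plasma membrane, 0 did, with a median of 0.05. Of 17 other condensin and cohesin genes, 1 lay below, Ncapd2, a condensin I subunit with 11.5 FPKM in Ct_2 and 11 in dTg_7 against 11.8 to 17.3. Of 21 other genes of dense-core vesicles, 1 lay above and 0 below, with a median of 0.03. These counts lie near the shares over all genes. Limma called none of these partners, where 0.016% of all genes were called. The median over all genes was -0.00262.

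Signalling through VIP and PACAP, to which Vipr2 belongs, was measured in 18 further genes. Of these 1 lay above all 10 others, where 1.45% of all genes did: Adcyap1, the gene of PACAP itself, with 17.0 FPKM in Ct_2 and 15.7 in dTg_7 against 5.03 to 13.0. Its limma adjusted p was 0.998, and the 18 genes had a median log2 difference of 0.08. Of 16 genes of calmodulin kinases, 1 lay above, against the same 1.45% of all genes: Camk2n1, an inhibitor of CaMKII, with 634 and 598 FPKM against 275 to 517 and a limma adjusted p of 0.905. Of 19 genes of acetylcholine signalling, 1 lay below, where 1.19% of all genes did: the muscarinic receptor gene Chrm4, with 11.3 and 12.1 FPKM against 12.2 to 20.2.

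Markers of the cell types and regions that a frontal dissection can hold also differed in places. The mean log2(FPKM + 0.5) of 12 markers of upper-layer neurons was 4.31 in Ct_2 and 4.32 in dTg_7, above the 3.76 to 4.18 of the 10 others. Rasgrf2, Lamp5 and Calb1, 3 of these 12, lay above all 10 others one by one, where 1.45% of all genes did. Lamp5, a membrane protein of layer 2 and 3 neurons, had 215 and 192 FPKM against 64.7 to 167. None of the 12 was called by limma. In such tissue samples, more cells of a type and more RNA per cell cannot be told apart.

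Markers of deep-layer neurons leaned the other way. The mean log2 level of 13 of them was 3.43 in Ct_2, within the 3.38 to 3.87 of the 10 others, and 3.29 in dTg_7, below it. Of the 13, 11 had a log2 difference below 0, and 1 lay below all 10 others, where 1.19% of all genes did. Fezf2 and Sla2 went the other way, with log2 differences of 0.19 and 0.07. Tle4, a layer 6 repressor, had 9.67 and 10.6 FPKM against 12.1 to 17.5, and Ccn2, a marker of layer 6b, had 7.37 and 8.27 FPKM against 7.26 to 16.7. The limma adjusted p was 0.846 for Tle4 and 0.998 for Ccn2. The mean level of 14 striatum markers was 2.55 in Ct_2 and 2.38 in dTg_7, in the lower part of the 2.22 to 5.23 of the others, and 14 of 14 had a log2 difference below 0, against 50.8% of all genes. Drd2, a dopamine receptor gene, had 0.327 and 0.436 FPKM against 0.193 to 19.1. Of 15 oligodendrocyte markers, 15 had a difference below 0, and their mean level was 4.65 in Ct_2 and 4.75 in dTg_7 against 4.44 to 5.69. The part of these marker differences in the results off the site was not tested beyond the fit with olfactory bulb and striatum markers. There limma called 5 genes: Esyt2 and Ptprn2, which had chosen the libraries, and Nrep, Ccdc3 and Rasgrf2. Nrep, named after that call was seen, had a log2 difference of -0.93 in that fit, with a limma adjusted p of 0.00338.

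Interferon-induced genes, the defence genes that type I interferon switches on, lay low in both libraries. All 20 measured members had a log2 difference below 0, and in 5 of them both libraries lay below all 10 others, where 1.19% of all genes did. Their mean log2 level was 1.54 in Ct_2 and 1.43 in dTg_7, against 1.56 to 2.38 in the 10 others. Xaf1, a promoter of cell death, had 4.25 and 4.04 FPKM against 4.93 to 8.99, and Irf7, a master regulator of the response, had 1.44 and 0.948 FPKM against 1.5 to 5.19. No member was called by limma, and the smallest adjusted p was 0.846, for Xaf1. The median log2 difference of the list was -0.43. Low levels were not particular to these 2 libraries. The mean log2 level was 1.44 in dTg_1 and 1.43 in dTgDox_2, also under the 10 others, but 1.64 in dTgDox_1 and 1.87 in dTgDox_3. In 2 of the 20 members all 3 dTgDox libraries lay below the 10 others. The share of all genes with all 3 below was not counted. The mean level of 19 genes of MHC and antigen presentation overlapped, at 2.17 in Ct_2 and 2.25 in dTg_7 against 2.08 to 2.32.

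**Figure D5:**
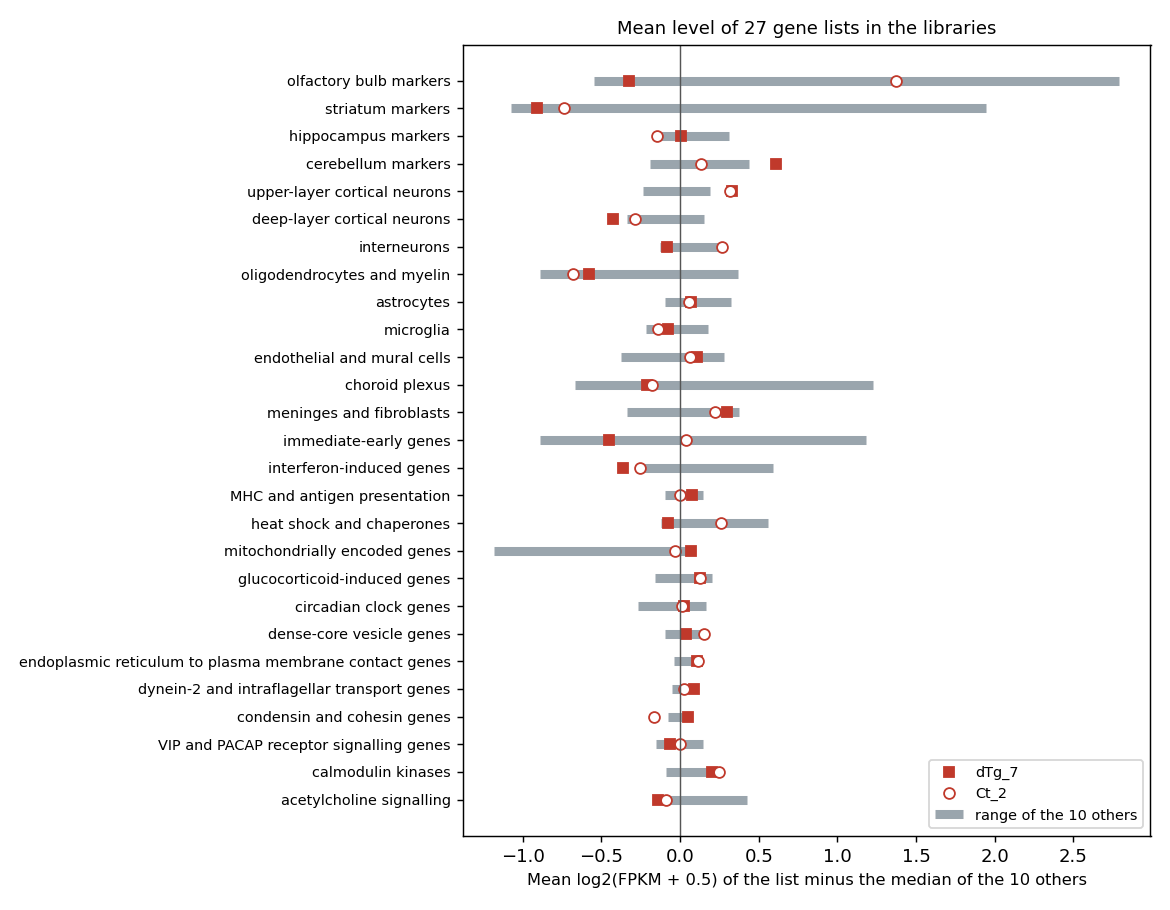
Mean log2(FPKM + 0.5) of 27 gene lists in dTg_7 (squares) and Ct_2 (open circles), minus the median of the 10 others, with the range of the others as a bar. Both libraries lie above the bar for upper-layer neurons and below it for interferon-induced genes. The lists of membrane contacts, dynein-2, condensin and dense-core vesicles include Esyt2, Wdr60, Ncapg2 and Ptprn2, respectively. These genes raise the levels of their lists in Ct_2 and dTg_7.

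In further lists the levels overlapped between the groups. The mean log2 level of 22 immediate-early genes, which neuronal activity switches on, was 4.0 in Ct_2 and 3.51 in dTg_7 against 3.08 to 5.15. Olfactory bulb markers stood at 3.64 in Ct_2 and 1.94 in dTg_7 against 1.73 to 5.06, so the 2 chosen libraries were far apart. Cerebellum markers stood at 3.14 and 3.62 against 2.82 to 3.45, and Pcp2 had 3.11 FPKM in Ct_2 and 6.15 in dTg_7 against 1.74 to 5.20. Of 15 microglia markers, 1 lay below, where 1.19% of all genes did: Ctss, a lysosomal protease, with 47.2 and 47.7 FPKM against 50.4 to 79.0.

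The offsets of the 2 libraries from their own genotypes were also compared with each other. Limma called 1 of 18726 genes (0.00534%) as differing between the offset of dTg_7 and that of Ct_2, and 896 had an unadjusted p under 0.05. These 896 are a smaller share of the 18726 than the 0.05 expected with no difference. Each offset rests on 1 library, so the spread is that of the 10 others. The called gene, Gm27533, is a short gene model of 152 bases on chromosome 19 with 47.8 FPKM in dTg_7 and 0.372 in Ct_2, and 19.5 to 52.8 in the 10 others. Its difference of offsets was 5.92 on the log2 scale, with a limma adjusted p of 0.0174. With genes of at least 300 exonic bases the count was 0.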

How the data were processed

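Each deposited file holds 1 value per Ensembl gene for 46073 genes, read here as FPKM, scaled to transcript length and library size. The unit was inferred, because low values step by an amount that depends on the gene. The submitters' processing notes list TopHat2 and DESeq; for versions, build and annotation, nothing is given in the sources. Symbols and coordinates came from GENCODE M21 (GRCm38), which matched 45139 identifiers. Depth, estimated from 1-read steps, was 21.4 to 31.5 M reads over the libraries, with 26.1 M for Ct_2 and 23.8 M for dTg_7. Read counts were not used here, so no counting intervals are given.

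Values were analysed as log2(FPKM + 0.5) with limma 3.58.1 in R 4.3.3 (trended, robust moderation; terms for the 2 libraries and for genotype), over genes that reached 0.5 FPKM in 3 or more of the 12. P-values were two-sided and adjusted by the Benjamini-Hochberg method over all genes, with a threshold of 0.05. They measure the spread between these libraries, which the labels do not tie to separate animals. The added 0.5 shrinks differences of low genes. Sequences were aligned with Biopython 1.88. The fit was tested on simulated data.

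The libraries, gene lists and tests were chosen with earlier results of these data known. Named genes were those within 1 Mb of the site, elsewhere the 10 with the smallest p-values among informative symbols whose mean log2 level reached 1, the 2 members of each list with the smallest p-values, and Camk2a, Mir211, Trpm1, Vipr2 and AA465934, of which the last and Trpm1 are not described. Of the 10, 1 is not reported here. Others are marked as chosen afterwards.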

Additional observations from a re-analysis of the deposited data

Results flagged for a closer look

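In 5 of 50 named genes, 1 of the 10 other libraries lay far from the rest, where chance flags about 1 group in 20. Gm10421 had 30.3 FPKM in dTg_5, against at most 7.54 in the rest. Gm12191, the copy of Rpl30, had 26.4 FPKM in Ct_6, and Prl, the pituitary hormone prolactin, had 2.54 FPKM in dTg_3. Tle4 had 17.5 FPKM in Ct_4, and Pcp2 had 5.20 FPKM in dTg_4.

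The offset of Gm27533 from its own genotype differed between the 2 libraries by 5.92 on the log2 scale (dTg_7 minus Ct_2), the only gene limma called in that test. The count of such genes was 0 without dTg_2, dTg_3 or Ct_6, 2 without dTg_4, dTg_6, Ct_1, Ct_3 or Ct_4, 3 without dTg_5, and 1 without Ct_5.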

How the results depend on the processing

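The number of genes called for Ct_2 and dTg_7 against the 10 others was 3, and it was 6 with a pseudocount of 0.1, 25 with no filter on low values, 5 with a filter of 2 libraries and 5 with the tissue covariates. Leaving out each of the 10 others in turn gave 2 to 11. The number whose offset differed between the 2 libraries was 1, and it was 4 with a pseudocount of 0.1, 247 with no filter and 0 with at least 300 exonic bases; leaving out each library gave 0 to 3. The replicate block, with the label numbers as a block, gave 6 calls, Esyt2 and Ptprn2 not among them, but there only Ct_2 against dTg_2 carries the estimate. Esyt2 and Ptprn2 had their highest limma adjusted p in that fit, equal to the upper end given above for other genes. The numbers do not pair the libraries: the correlation of deviations at numbers 3 to 6 was -0.198 to 0.0411. Without each library in turn the log2 difference ran from -5.35 to 0.57 for Gm27533, from -0.00339 to 0.11 for Rapgef5 and from -0.448 to 0.0565 for Zfp386. With the tissue covariates that of Slc6a7 was -0.0376. The count of non-overlapping genes stayed within 1.5 times of 493, from 438 to 689 under other filters and scalings and 516 to 705 when 1 of the 10 others was left out. Of the values of single genes and lists under the alternatives, 1892 held. For a gene this means the same direction and side of the threshold. For a list it means a median that moved by less than the SD of its level among the 10 others. Of the values of genes, 18 newly passed the threshold, 11 no longer did and 4 turned their direction. Of the list medians, 16 moved by more than that SD. The causes of these changes were not tested. Both the filter of 2 libraries and no filter admit genes that pass through Ct_2 and dTg_7 alone. The filter of 3 libraries keeps such genes out. Gm24710 and Gm37579, of 101 and 142 exonic bases, had the smallest adjusted p-values of limma under both. Admitted genes enter the adjustment too, so nothing is read from the calls of Ccdc3, Cdkn1c, Rpl30 and Gm11027 without the filter. With FPKM values that may rest on few reads, short genes are the least certain.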

Other observations

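Outside the named rule, several genes chosen after their values were seen also lay apart. Of the 493 non-overlapping genes, 31 differed by at least 2-fold, and 14 of the 31 had under 300 exonic bases. Lrg1, a secreted glycoprotein of inflamed vessels, had 1.91 FPKM in Ct_2 and 1.41 in dTg_7, against 0.236 to 0.802 in the 10 others, with a limma adjusted p of 0.106. In the dTgDox libraries it had 0.787, 0.464 and 0.555 FPKM.

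Prl, the gene of the pituitary hormone prolactin, had 5.67 FPKM in Ct_2 and 3.72 in dTg_7, against 0 to 2.54 in the 10 others, and a limma adjusted p of 0.55, or 0.0117 without dTg_3, in a range up to 0.9998 over the alternatives. Gh, the growth hormone gene, had 28.2 FPKM in Ct_2 and 9.08 in dTg_7, against 0 to 9.91 in the 10 others, so its groups overlapped. In dTg_1 Prl had 17.7 FPKM and Gh 55.5, while in the 3 dTgDox libraries Prl had 0.0993, 0 and 0 and Gh was listed at 0.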
